A study of Rattus norvegicus with 39 samples.

Results

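Estrous stage was compared within D1-MSNs of saline-treated female rats, 5 libraries in proestrus (numbers 1, 9, 17, 25 and 33) against 5 in diestrus (numbers 3, 11, 19, 27 and 35). The 10 libraries were chosen by their titles, which give cell type, stage and treatment, and are 10 of the 39 libraries of the series. Each library is polyribosome-bound mRNA immunoprecipitated from the nucleus accumbens (NAc) of 1 rat. The comparison addresses whether the stage of the cycle alone, without ketamine, is accompanied by different transcripts on the ribosomes of these neurons.

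All 10 rats were adult female D1-Cre rats, heterozygous for a Cre recombinase under the Drd1a promoter on a Long Evans background, and all had received an AAV that carries the RiboTag (Rpl22 with an HA tag) in a Cre-dependent form in the NAc. Tagged ribosomes are therefore made in cells in which that promoter drove Cre and which the virus reached. Transcripts that mark other cell types were also counted in these libraries, as given below. After a first session that followed 1 saline injection, every rat was given 6 further saline injections (0 mg/kg ketamine), each in its assigned stage and 4 or 5 days apart, and tissue was punched (2 mm) 4 days after the last one, 30 min after return to the test context. Stage was read from vaginal smears, and at least 3 litters were represented in each group. Ages are not given. Set beside this comparison are 10 D1 libraries of rats given ketamine at 10 mg/kg on the same schedule and 10 saline D2 libraries from D2-Cre rats, heterozygous for Cre under the Drd2 promoter, each 5 in proestrus and 5 in diestrus.

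Proestrus is the stage in which circulating estradiol and then progesterone reach their peak before ovulation, and diestrus is the stage in which estradiol is low. Estradiol acts on nuclear estrogen receptors, which bind DNA, and on membrane-associated receptors, and in the striatum it is known to raise dopamine release and to change the excitability and spine density of medium spiny neurons. D1-MSNs carry the dopamine D1 receptor, which couples to the stimulatory G protein pathway, and send GABAergic projections to the midbrain and pallidum.

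Total counts were about 18271300 to 24784400 per library, and no pair of libraries within a stage agreed within sampling noise. Adora2a, an adenosine receptor that marks D2-MSNs, had 149 to 208 CPM (counts scaled to library size, here on a scale common to all 39 libraries) in the 10 saline D1 libraries and 776 to 1063 in the 10 saline D2 libraries, so the ranges did not overlap. It was the only gene of the D2 list that could be paired with a symbol, and no gene of the D1 list could. Markers of D1 neurons such as Drd1 and Pdyn are not analysed here by name, and the D1 label was thus checked only by the low Adora2a. The interneuron marker Sst had 248 to 767 CPM in the saline D1 libraries and 65.1 to 276 in the saline D2 libraries. Nos1, another interneuron marker, had 14.6 to 70.6 and 6.54 to 14.2. The saline D1 libraries thus also hold transcripts that mark interneurons, and their source was not tested.

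One proestrus library stood apart. In library 33, 4 genes took 10.5% of all counts, against 0.280% to 0.501% in the other 9 libraries and 0.198% to 0.963% in the other 38 of the series. The largest share belonged to ENSRNOG00000065867, with 6.93% in library 33 and a mean of 0.239% in the other proestrus libraries. ENSRNOG00000062930 took 1.53%, against 0.0606%. None of the 4 could be paired with a symbol. The cause of these shares was not tested. On principal components of log2(CPM + 1), library 33 lay at the far end of the second component, and neither of the first 2 components separated the stages with or without it. Counts of called genes, and the genes described library by library, are therefore given with and without library 33.

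**Figure D1:**
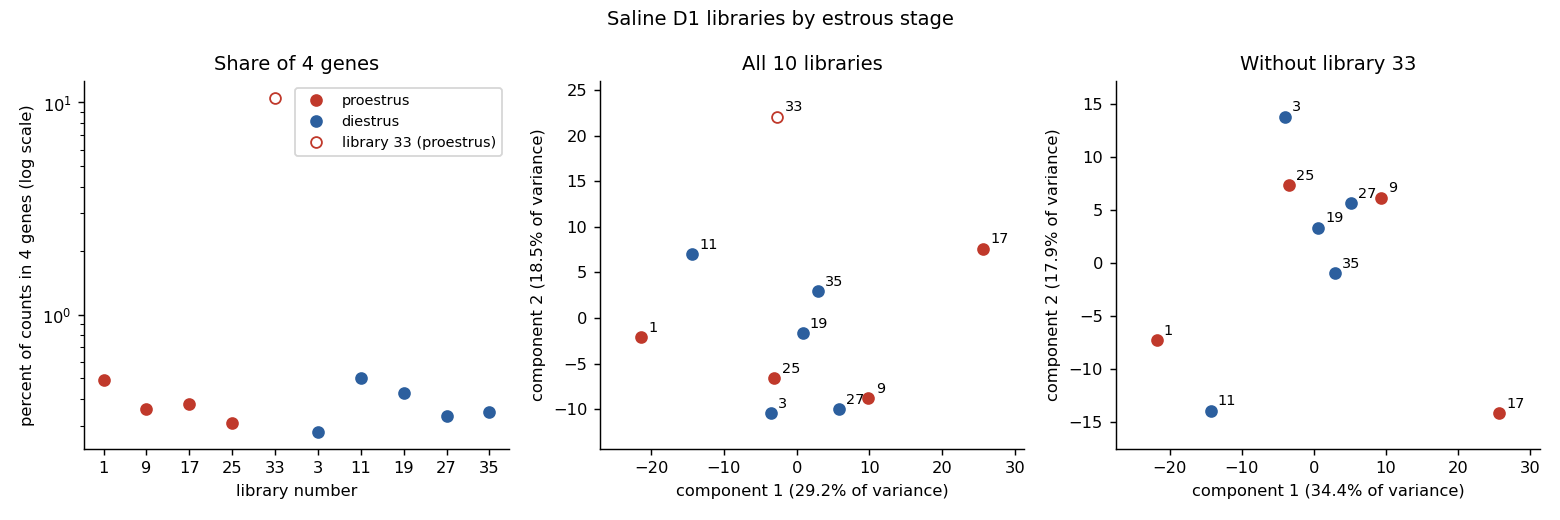
Share of counts in 4 genes by library (log axis, percent), and principal components of the 10 libraries and of the 9 left without library 33 (each axis gives its percent of variance). Library 33, the open circle, has 10.5% of its counts in these genes, and proestrus (red) and diestrus (blue) libraries are interspersed in both component plots.

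By edgeR, no gene was DE between stages. Of 13183 genes tested, 0 (0%) had an adjusted p under 0.1, the threshold for a call, by the edgeR quasi-likelihood test (Benjamini-Hochberg), and the lowest adjusted p was 0.874. Without adjustment, 522 genes (3.96%) had p under 0.05, where 659 would be found if no gene differed and genes were independent. Of the 522, 251 (1.9% of genes tested) were higher in proestrus and 271 (2.06%) were lower. DESeq2 with the same 2 surrogate variables, which are axes of unexplained variation estimated from the counts, called 2 genes, of which 1, Egr2, has a symbol. Most differences were small. The median absolute log2 fold change was 0.06, and 34 genes (0.258%) exceeded 1 in either direction. The 95% intervals of the edgeR model reached 0.18 at the median to either side of the log2 fold change. For the 8984 genes with a mean of at least 10 CPM they reached 0.14. These intervals take the 2 surrogate variables as known and cover only the spread left after them, so they can be too narrow. In 99.6% of these better measured genes the interval lay within -1 and 1, so that a doubling or halving was outside it in this model.

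**Figure D2:**
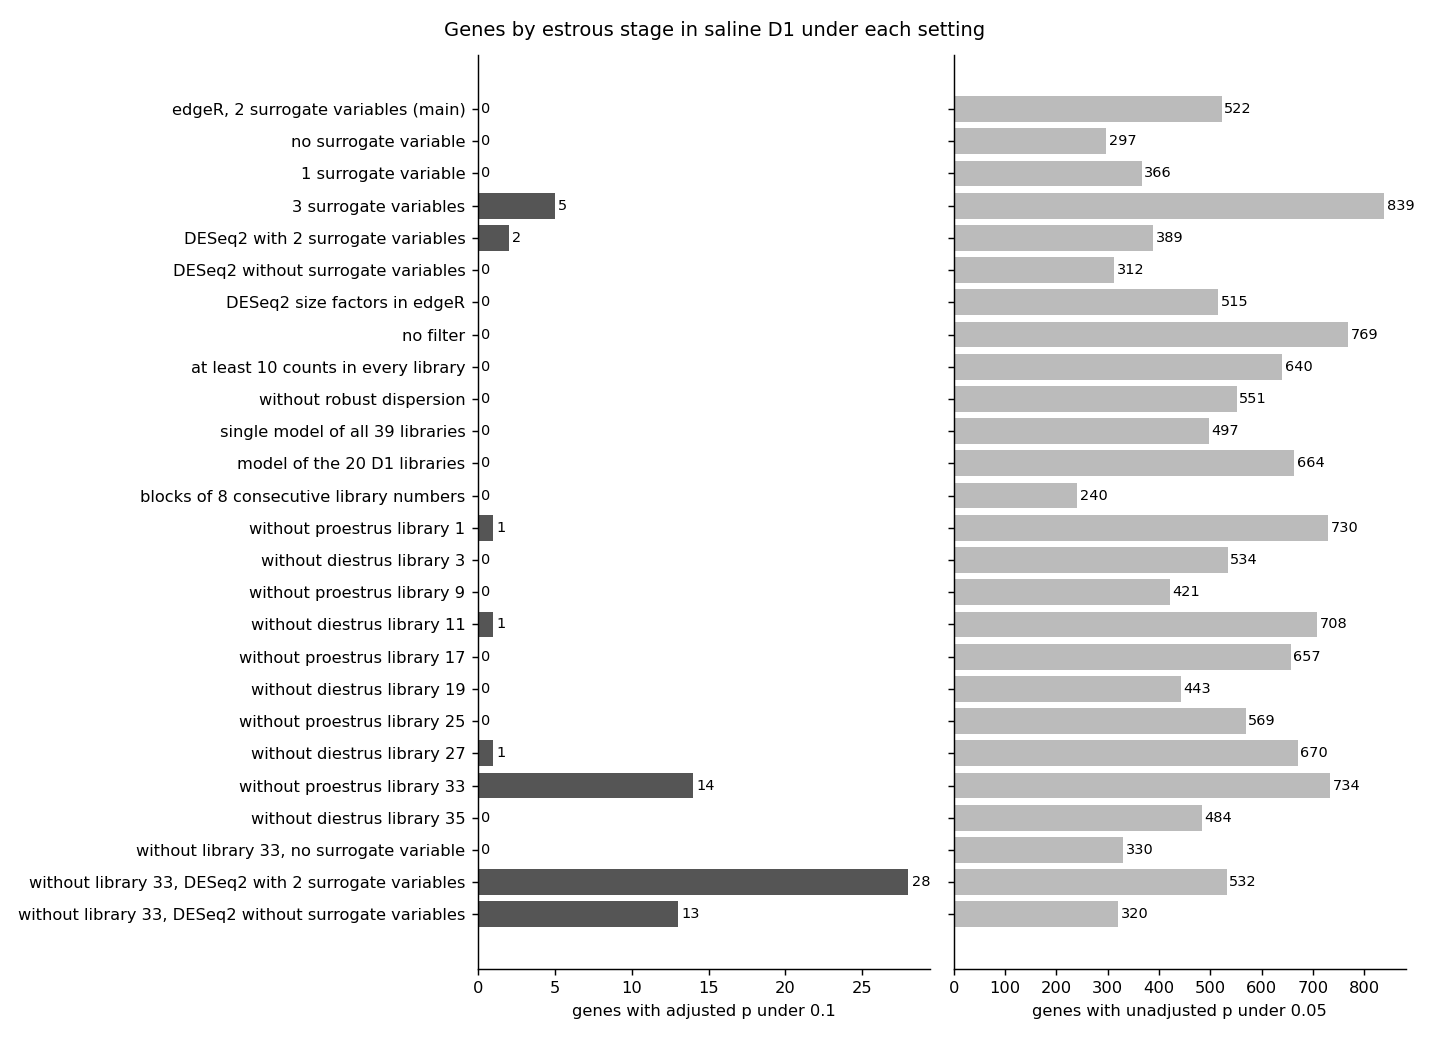
Number of genes with an adjusted p under 0.1 (left) and with an unadjusted p under 0.05 (right) for proestrus against diestrus in saline D1 libraries under each setting of the analysis, 1 bar each. The main 10-library edgeR analysis calls 0 genes, the counts without library 33 are 14, 0, 28 and 13, and unadjusted counts run from 240 to 839.

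Without library 33, 14 of 13302 genes (0.105%) passed the threshold by the same edgeR test, 13 lower and 1 higher in proestrus, and 734 (5.52%) had an unadjusted p under 0.05. None of the 14 has a paired symbol, so their identity is not given here. The lowest adjusted p belonged to ENSRNOG00000013953. Its CPM was 34.8, 40.7, 39.7 and 44.9 in the 4 remaining proestrus libraries and 63.6, 55.3, 66.0, 70.0 and 58.7 in diestrus, without overlap, and 77.2 in library 33, above every other library. Between stages the log2 fold change was -0.64 without library 33 (SE 0.0589, adjusted p = 0.000208 by the edgeR quasi-likelihood test (Benjamini-Hochberg)) and -0.48 with it (SE 0.239, adjusted p = 0.999). ENSRNOG00000008915 had the same pattern, with 44.2, 49.0, 49.1 and 52.4 CPM in the 4 proestrus libraries, 83.2, 63.0, 71.9, 75.6 and 69.3 in diestrus and 86.5 in library 33. Its log2 fold change was -0.56 without library 33 (adjusted p = 0.000208, same test) and -0.43 with it. Of the 14 genes, 7 had no overlap between stages in the 9 libraries, and the rest overlapped. ENSRNOG00000028348, for example, had 16.7 to 55.5 CPM in the 4 proestrus libraries and 35.4 to 57.7 in diestrus (2-sided exact permutation p = 0.183).

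Library 33 had the highest CPM of the 5 proestrus libraries in all 13 genes that were lower in proestrus without it, and it was above every diestrus library in 8 of them. The calls also rested on the model. Without surrogate variables edgeR called 0 genes among the 9 libraries (330 with an unadjusted p under 0.05), while DESeq2 called 13 without and 28 with 2 surrogate variables, among them 8 and 14 of the 14. In the 10 libraries the 14 genes kept their sign, and 7 had an unadjusted p under 0.05. Their signs in independent libraries were mixed. In ketamine-treated D1 libraries 13 of the 14 were tested, 8 had the same sign and 1 an unadjusted p under 0.05, and in saline D2 libraries 11 of 13 had the same sign and 1 an unadjusted p under 0.05.

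The gene that was higher in proestrus without library 33, ENSRNOG00000031662, also had the lowest p with it. Its CPM was 8.75, 20.7, 21.5, 16.7 and 13.5 in proestrus (libraries 1, 9, 17, 25 and 33, the order used throughout) and 9.37, 7.83, 9.74, 14.2 and 9.96 in diestrus (3, 11, 19, 27 and 35). Library 1 lay within the diestrus range and library 33 below the highest diestrus value. On the log2 scale the difference was 0.60 (SE 0.107, adjusted p = 0.874 by the edgeR quasi-likelihood test (Benjamini-Hochberg)) with library 33 and 0.57 (adjusted p = 0.0726) without it. Between the stages in ketamine-treated D1 libraries, which are other rats, it was 0.63 (adjusted p = 0.153, same test), and in saline D2 libraries 0.28 (adjusted p = 0.987).

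The genes that follow are those with a symbol, 1503 of the 13183 tested. Of these, 61 (4.06%) had an unadjusted p under 0.05, against 3.96% of all genes, 29 higher and 32 lower in proestrus. By the edgeR quasi-likelihood test (Benjamini-Hochberg), none passed the adjusted threshold in the 10 libraries or without library 33, where their lowest adjusted p was 0.383. DESeq2 with 2 surrogate variables called 1 of them in the 10 libraries, Egr2. The edgeR adjusted p between stages in the 10 libraries was 0.999 for each gene named from here on, so the values describe these rats and no difference is established by them.

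Immediate early genes, which neurons transcribe within minutes of activation, had the largest median log2 fold change of the pathway lists, 0.40. Of 33 listed, 3 could be tested, and all had positive log2 fold changes, 2 with an unadjusted p under 0.05, with and without library 33, against the background of 3.96%. Egr2, a zinc finger transcription factor, had 16.5, 23.3, 24.7, 17.8 and 11.6 CPM in proestrus and 16.3, 4.46, 10.2, 16.2 and 12.9 in diestrus. Libraries 1, 9, 17 and 25 were above every diestrus library, library 1 narrowly, and library 33 was below 3 of them. Its log2 fold change was 0.78 (SE 0.215, adjusted p = 0.999, edgeR) and 0.81 without library 33. DESeq2 with 2 surrogate variables gave 0.80 and an adjusted p of 0.0472. By the 2-sided exact permutation test of log2(CPM + 1), p was 0.0794 for 5 against 5 libraries and 0.0397 without library 33.

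Sik1, a salt-inducible kinase that restrains CREB-dependent transcription, had 14.1, 18.9, 18.5, 15.8 and 14.7 CPM in proestrus and 13.3, 8.54, 10.6, 14.8 and 15.4 in diestrus. The groups overlapped, with diestrus libraries 11 and 19 lowest. The fitted log2 fold change was 0.40 (SE 0.119, unadjusted p = 0.00491, edgeR), and 0.39 without library 33. Btg2, an antiproliferative early gene, had 0.12 (unadjusted p = 0.562). Diestrus library 11 was the lowest of the 10 for both Egr2 and Sik1.

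**Figure D3:**
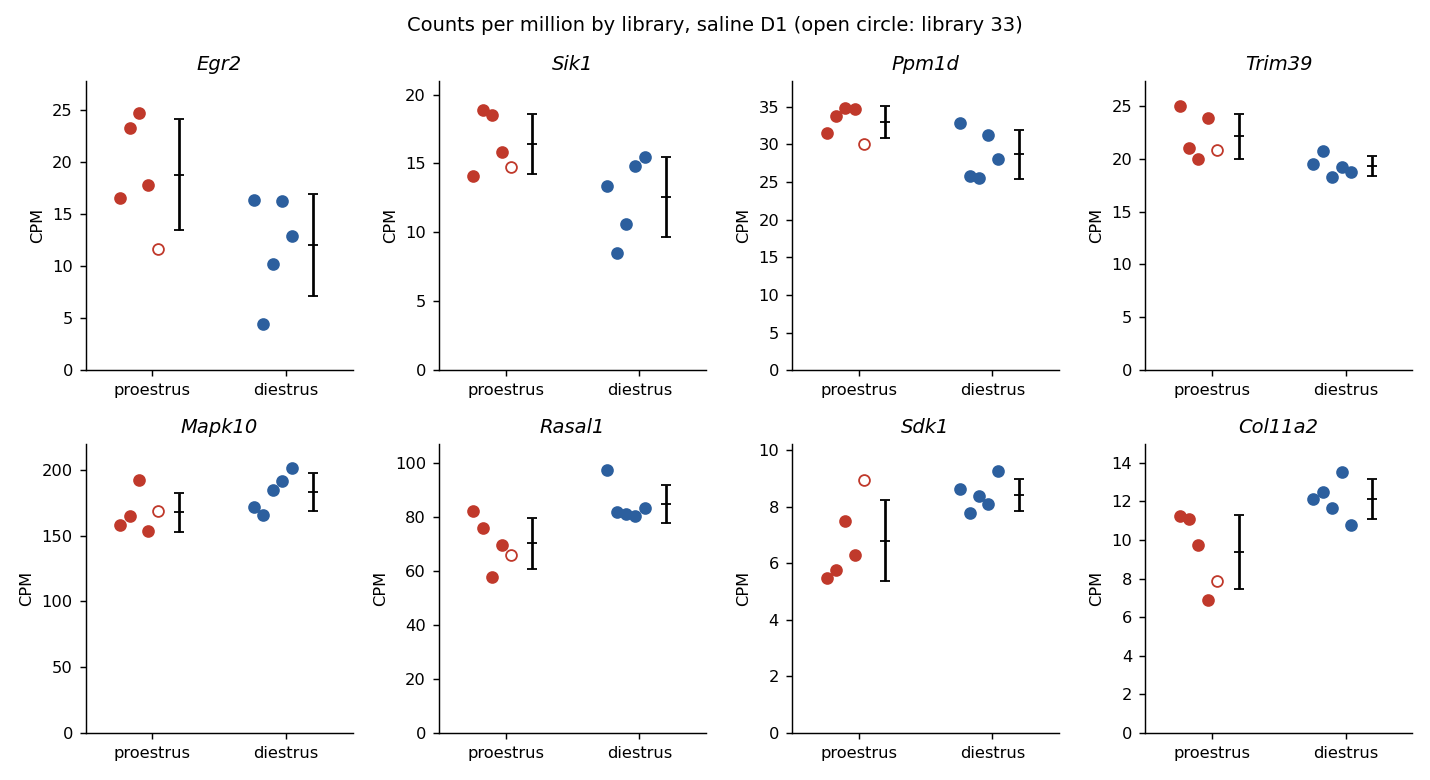
CPM (linear axis from 0) of 8 genes in each saline D1 library, proestrus red and diestrus blue, library 33 open; bars are the mean ± SD of 5 libraries. The stages overlap in all 8 genes, and library 33 is the lowest proestrus value of Egr2 and the highest of Sdk1.

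In the family of signaling kinases and phosphatases, 5 of 29 tested genes had an unadjusted p under 0.05, 4 higher and 1 lower with and without library 33, against 3.96% of all genes, and the median log2 fold change of the family was 0.03, against -0.00 over all genes. Mapk10, the neuronal Jun kinase JNK3, had the lowest p of the genes with a symbol. It had 158, 165, 192, 154 and 169 CPM in proestrus and 172, 166, 185, 191 and 201 in diestrus, and library 17 alone in proestrus exceeded the diestrus mean of 183. Its log2 fold change was -0.17 (95% interval -0.27 to -0.08, unadjusted p = 0.00193, edgeR) and -0.18 without library 33. Ppm1d, a phosphatase that turns off p53 and p38 signaling, had 31.4, 33.8, 34.8, 34.7 and 30.1 in proestrus against 32.8, 25.7, 25.5, 31.2 and 28.1 in diestrus, where libraries 3 and 27 lay within the proestrus range. Its log2 fold change was 0.23 (SE 0.0689, unadjusted p = 0.00457) and 0.24 without library 33.

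Of 42 ubiquitin ligase, deubiquitinase and proteasome genes, 3 had an unadjusted p under 0.05, all 3 higher in proestrus, against 1.9% of all genes that were higher at that threshold, and the family median was 0.03. Without library 33 there were also 3, but Rnf10 stood in place of Fbxo28. Trim39, a ubiquitin ligase, had 25.0, 21.0, 20.0, 23.8 and 20.8 CPM in proestrus and 19.5, 20.8, 18.2, 19.2 and 18.8 in diestrus, and diestrus library 11 alone reached into the proestrus range. Between stages the log2 fold change was 0.23 (SE 0.0691, 2-sided exact permutation p = 0.0159) and 0.25 without library 33. Usp42, a deubiquitinase, had 0.21 (SE 0.0815) and Fbxo28, an F-box protein, 0.19 (SE 0.0879). Fbxo28 had 0.26 between the stages in saline D2 libraries (unadjusted p = 0.00403 and adjusted p = 0.987, edgeR), and Usp42 had -0.19 in ketamine-treated D1 libraries (unadjusted p = 0.0495 and adjusted p = 0.999), the opposite sign.

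Genes of the extracellular matrix and of cell adhesion had no member past the adjusted threshold, and their direction depended on the model. Of 9 tested matrix genes 8 had negative fitted log2 fold changes, but 6 had a lower mean log2(CPM + 1) in proestrus, a count added after the data were seen. Among 11 axon guidance and adhesion receptors these numbers were 9 and 5. Of the matrix genes 3 had an unadjusted p under 0.05, all 3 lower, against 2.06% of all genes, and the list median was -0.24, or -0.28 without library 33, against -0.00 over all genes. Col11a2, a chain of fibrillar collagen XI, had 11.2, 11.1, 9.75, 6.91 and 7.89 CPM in proestrus and 12.1, 12.5, 11.7, 13.6 and 10.8 in diestrus, where library 35 alone lay below 2 proestrus libraries. On the log2 scale the difference was -0.35 (SE 0.140, unadjusted p = 0.0244, edgeR) and -0.33 without library 33. Lamc1, a laminin chain of basement membranes, had -0.17 (unadjusted p = 0.0268), with 18.1 to 28.8 CPM in proestrus and 21.3 to 27.4 in diestrus, and by the exact permutation test p was 0.413. Col6a1, a collagen VI chain, was measured at 0.521 to 1.62 CPM in proestrus and 0.645 to 1.88 in diestrus, ranges that overlap almost wholly although its log2 fold change was -0.76 (SE 0.305).

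Col18a1, the collagen of endostatin, had the opposite sign. Its CPM was 8.85, 20.9, 26.7, 19.8 and 13.9 in proestrus and 10.4, 9.33, 15.5, 16.2 and 13.9 in diestrus, with library 1 below all diestrus libraries, and the log2 fold change was 0.34 (SE 0.122), 0.35 without library 33. Sdk1, a sidekick adhesion molecule that guides synaptic lamination, had 5.47, 5.77, 7.49, 6.31 and 8.96 in proestrus and 8.62, 7.79, 8.38, 8.09 and 9.28 in diestrus. Library 33 was the highest of its group, and the other 4 proestrus libraries lay below every diestrus library. The fitted log2 fold change was -0.41 (SE 0.127) and -0.48 without library 33, where the 2-sided exact permutation p was 0.00794, the smallest that 4 against 5 libraries allow when absolute differences are compared. Epha5, an ephrin receptor, changed sign with the model, with -0.12 in the 10 libraries, -0.16 without library 33 and 0.02 without surrogate variables.

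Matrix genes are largely made by glia and vessels, and marker levels of other cells are given beside them. Gjc3, a connexin of myelinating glia, had 4.11, 3.31, 3.72, 2.80 and 3.68 in proestrus and 3.37, 5.45, 4.25, 4.42 and 5.01 in diestrus (log2 fold change -0.43, SE 0.152, or -0.41 without library 33). Tmem119, a microglial marker, was at 0.593 to 0.885 CPM in proestrus and 0.782 to 1.63 in diestrus (log2 fold change -0.64, SE 0.290). Its log2 fold change was -0.60 without library 33 (unadjusted p = 0.0731, edgeR) and 0.79 in saline D2 libraries. Aif1, the other tested microglial marker, had -0.02 in the 10 libraries. Sums of the 2 microglial markers were 1.14 to 1.87 and 1.41 to 2.29 CPM, of the endothelial marker 1.99 to 3.72 and 2.23 to 4.63, of the 4 astrocyte markers 95.1 to 138 and 111 to 136, and of the 2 mural and fibroblast markers 1.09 to 2.12 and 1.39 to 2.18, in proestrus and diestrus respectively. Sums of the 2 oligodendrocyte markers were 138 to 203 and 162 to 229, and the precursor marker had 3.03 to 5.57 and 4.41 to 6.45. The stages overlapped in each, no paired marker was at 0 in every library, and the blood marker Alas2 had at most 5 counts. Median log2 fold changes were -0.33 for microglia, -0.38 for the endothelial marker, -0.20 for oligodendrocytes and -0.26 for their precursor marker. They were -0.04 for astrocytes and -0.08 for mural and fibroblast markers. In such samples fewer cells of a type and less RNA per cell cannot be told apart, and the part of these cells in the matrix genes was not tested.

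**Figure D4:**
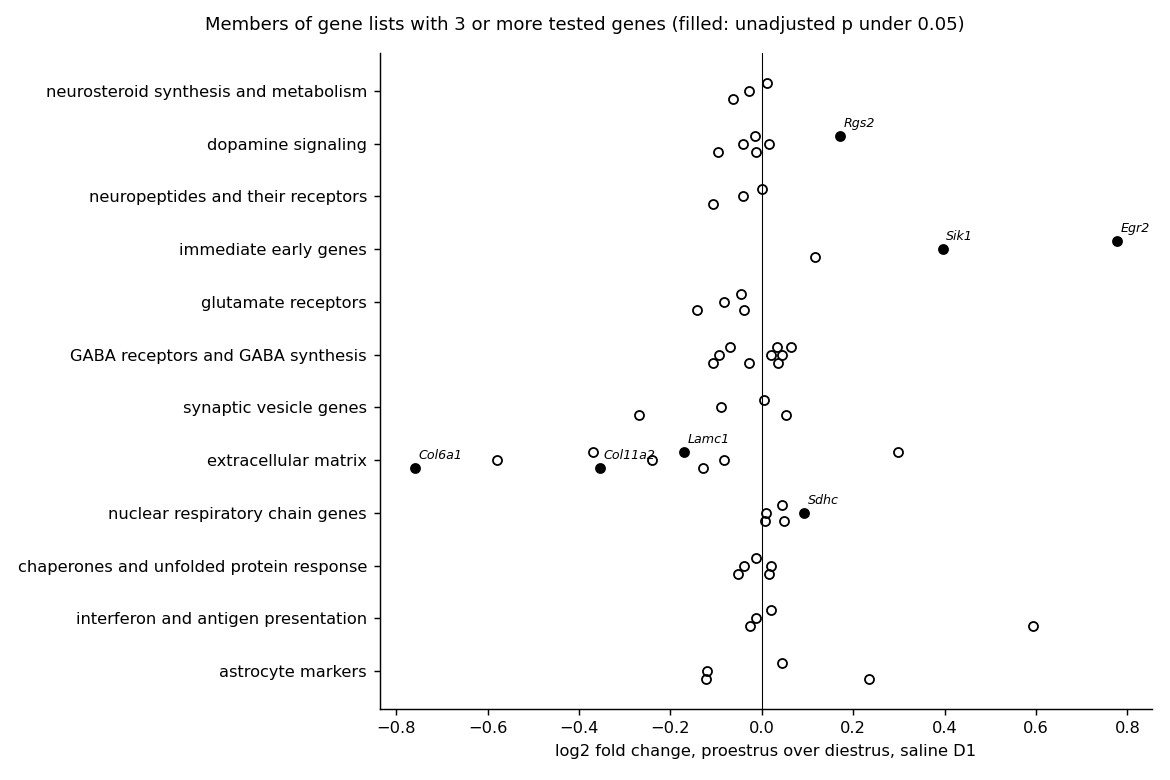
Log2 fold changes, proestrus over diestrus, of the tested members of the lists shown, each with 3 or more tested genes, 1 circle a gene, filled where the unadjusted p was under 0.05. Immediate early genes lie at 0.12 to 0.78 and 8 of 9 extracellular matrix genes lie below 0 in this model, which holds 2 surrogate variables.

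Hormone signaling genes could be examined only in part. Of 13 ovarian hormone receptors 1 could be paired, Gper1, the membrane G protein-coupled estrogen receptor, and with 0 to 7 counts per library it did not pass the filter on low counts. Among coregulators of steroid receptors, Nrip1, an estrogen-responsive corepressor, had 0.04 (SE 0.0731), and Ptges3, the p23 cochaperone of steroid receptors, 0.05.

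Cyp19a1, aromatase, which makes estradiol from testosterone, was detected at a low level of 2.92, 3.09, 2.95, 1.36 and 3.02 CPM in proestrus and 3.82, 2.91, 2.50, 3.42 and 1.25 in diestrus. The stages overlapped, with 1 low library in each, and the log2 fold change of -0.06 had an SE of 0.326, and it was -0.12 without library 33. Srd5a3, a steroid reductase family member, had -0.03 (SE 0.0882) and Hsd17b7, an enzyme of cholesterol and estradiol synthesis, -0.26 (SE 0.254). Of the orphan nuclear receptors, Esrrg had -0.10 (SE 0.0943), a sign that depends on the model, and Rxrb 0.02. No member of these hormone lists passed the adjusted threshold by edgeR with or without library 33.

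Dopamine, G protein and synaptic genes differed little. Of 6 dopamine signaling genes 1, which was higher in proestrus, had an unadjusted p under 0.05 against 3.96% of all genes, and the list median was -0.01. Rgs2, an early-response regulator of G protein signaling, had 200.4, 221, 203, 192 and 149.8 CPM in proestrus and 185, 136, 179, 214 and 182 in diestrus. Library 33 was lowest in proestrus and library 11 lowest in diestrus, and the log2 fold change was 0.17 (SE 0.0705, unadjusted p = 0.0328, edgeR), 0.20 without library 33 (unadjusted p = 0.0504). Adcy5, the main striatal adenylyl cyclase, had -0.01 and Rgs9, a striatal regulator of dopamine receptor signaling, -0.04. Gna12, a G protein alpha subunit, had 67.7, 52.0, 56.8, 56.4 and 54.2 in proestrus and 62.7, 66.4, 66.5, 60.3 and 68.4 in diestrus (log2 fold change -0.18, SE 0.0630, or -0.15 without library 33), with library 1 the only proestrus library above the diestrus minimum.

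Rasal1, a Ras GTPase-activating protein, had 82.5, 76.1, 57.9, 69.7 and 66.1 CPM in proestrus and 97.4, 81.9, 81.4, 80.5 and 83.4 in diestrus. Library 1 alone in proestrus reached the diestrus range, and diestrus library 3 stood above the rest. Its log2 fold change was -0.20 (SE 0.0552, 2-sided exact permutation p = 0.0317), and -0.19 without library 33. Tbc1d32, a ciliary protein of hedgehog signaling, had 9.27, 6.83, 6.92, 7.33 and 7.41 against 11.0, 10.1, 10.0, 8.09 and 8.81 (log2 fold change -0.31, SE 0.108, or -0.29 without library 33), and it was -0.32 between the stages in saline D2 libraries (unadjusted p = 0.0412 and adjusted p = 0.987, edgeR).

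Of 9 GABA receptor and synthesis genes and 4 glutamate receptor genes, 0 had an unadjusted p under 0.05 by edgeR, and none was called by edgeR or DESeq2. The GABA genes ran from -0.11 to 0.06 around a median of 0.02, with Gabrb1, a receptor beta subunit, lowest, and the glutamate receptors from -0.14 to -0.04. Stx2, a syntaxin, had -0.27, Grm4, a metabotropic glutamate receptor, -0.08 (SE 0.0518), and Kcnj6, a G protein-gated potassium channel, 0.10 (SE 0.0852), with library 17 at 38.4 CPM and the other proestrus libraries at 14.5 to 21.1. Cacng5, Sstr2, Clock, Cdkn1a, Canx and Psmb9 had the lowest p of their lists (calcium channels, neuropeptides, clock, glucocorticoid-responsive, chaperone and antigen presentation genes), none under 0.05, with log2 fold changes of -0.10, -0.11, 0.04, -0.19, -0.04 and 0.59.

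Among genes of RNA and protein synthesis, Rps10, a protein of the small ribosomal subunit, had the largest difference, with 22.7, 30.7, 30.7, 17.9 and 38.5 CPM in proestrus and 19.9, 17.6, 16.1, 19.0 and 17.0 in diestrus. Library 25 alone in proestrus overlapped diestrus, library 33 was highest, and the log2 fold change was 0.53 (SE 0.182), or 0.43 without library 33. The other 4 ribosomal proteins ran from -0.02 to 0.08. Ribosomal protein genes have near-identical processed copies between which reads can be split, so the Rps10 value is uncertain. Eif4g1, the scaffold of the cap-binding complex, had 413, 405, 408, 393 and 379 in proestrus and 411, 435, 427, 423 and 459 in diestrus (log2 fold change -0.11, SE 0.0401, exact permutation p = 0.0159, or -0.10 without library 33), with library 1 alone in the diestrus range. Clk4, a kinase of splicing factors, had 0.30 (SE 0.0984), and its diestrus libraries 11 and 19, at 16.0 CPM each, lay below the others at 21.4 to 22.5. Sdhc, a subunit of succinate dehydrogenase, had 0.09 (SE 0.0397), and all 5 nuclear respiratory chain genes had log2 fold changes between 0.01 and 0.09.

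Tet1, which oxidizes methylated cytosine, had the largest log2 fold change of the named genes, 1.38 (SE 0.479, unadjusted p = 0.0119, edgeR), at a very low level of 0.521, 0.551, 0.850, 0.848 and 1.01 CPM in proestrus and 0.644, 0.291, 0.272, 0.0993 and 0.104 in diestrus. Diestrus library 3 lay within the proestrus range, and without library 33 the log2 fold change was 1.32. Abraxas1, of the BRCA1-A complex, was as low, at 0.469 to 0.931 and 0.653 to 1.21 CPM, with -0.75 (SE 0.289). The remaining genes of lowest p were Lmln, a metalloprotease (-0.42, SE 0.124), Osgepl1, a mitochondrial tRNA-modifying enzyme (-0.31, SE 0.110), Cnot6l, a deadenylase (0.23, SE 0.0865), and Pbx2, a homeodomain protein (0.12, SE 0.0432). The zinc finger gene Zfp672 had 0.18 (SE 0.0778).

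In none of the 20 genes of lowest p were the stages fully separated. Over all tested genes, every proestrus library was above every diestrus library in 26 (0.197%) and below in 25 (0.19%), and 6 of the 51 have a symbol. Without library 33, where 4 proestrus libraries are compared with 5, the counts were 64 (0.485%) and 82 (0.622%). These 6 were named after their values had been seen. Hapstr1, a regulator of stress signaling, was above, with 81.4, 85.4, 80.0, 80.9 and 87.5 CPM in proestrus and 77.4, 79.6, 70.8, 77.5 and 74.9 in diestrus (log2 fold change 0.13, SE 0.0489, or 0.11 without library 33). Nfe2l2, the antioxidant transcription factor NRF2, was below, with 1.93, 1.87, 1.78, 1.57 and 1.84 against 1.98, 3.16, 2.45, 2.08 and 2.45 (log2 fold change -0.47, SE 0.190, or -0.45 without library 33). Dnajc1 (-0.27), a chaperone of the endoplasmic reticulum, Nvl (-0.24), of ribosome assembly, Sspn (-0.39), of the dystrophin complex, and Cog1 (-0.10), of the Golgi, were also below. Full separation gives the smallest p, 0.00794, that a 2-sided exact permutation test of 5 against 5 can give. If no gene differed, that fraction of genes would be separated in 1 direction or the other. For 4 against 5 libraries the fraction 0.00794 applies to each direction. The shares found were lower in both cases, so the separated genes are no more than would be found without any difference.

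Estrogen receptors bind an inverted repeat, and promoters were searched for it in RefSeq windows of 250 bases before to 50 after a start site (build GRCr8). Of the tested genes 1280 had a window. The full element GGTCANNNTGACC was in none of them and in 0.0255% of the 27457 genes with windows, and the element of progesterone, androgen and glucocorticoid receptors, GNACANNNTGTNC, was in 2, neither with an unadjusted p under 0.05. One arm of the estrogen receptor element, AGGTCA, searched on both strands and added after the data were seen, was in 149 (11.6%) of the 1280, against 16.9% of all genes with windows. Of these 149, 6 (4.03%) had an unadjusted p under 0.05, 3 in each direction, against 4.06% of the 1280, and 7 had it without library 33. The median log2 fold change of the 149 was 0.00, as it was over the 1280. The 8 windows of the 6 genes, of 30 bases each, are shown so that the arms can be compared, in the direction of the gene and with the arm in capitals (TGACCT is AGGTCA on the other strand).
Tbc1d32 (chr20:36133226-36133255, minus strand): cctccttcctgcAGGTCAatgcacccgcct
Gjc3, first (chr12:22024788-22024817, minus strand): agAGGTCAgtcctacttttcagtgagctct
Gjc3, second (chr12:22024662-22024691, minus strand): gaatacatcccgTGACCTtgacaccacagt
Egfl8 (chr20:4137936-4137965, plus strand): cctacttggccgTGACCTgcccttgctttg
Zfp672 (chr10:43005382-43005411, minus strand): ctccgccagggcAGGTCAatagtacgcttg
Mcf2, first (chrX:143550946-143550975, minus strand): gcctagagtgcgAGGTCAtgctgtctcctc
Mcf2, second (chrX:143550766-143550795, minus strand): tctcagtggctgAGGTCAgagcgctctgca
Poglut1 (chr11:75703936-75703965, plus strand): ggtgttctggaaTGACCTagcctaggttct
Tbc1d32, Gjc3 and Egfl8 (-0.73, SE 0.314) were lower in proestrus, and Zfp672, Mcf2 (0.33, SE 0.144) and Poglut1 (0.13, SE 0.0591) were higher. A match of letters is a description of these windows, not a binding site.

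The same contrast in other rats was set beside these genes. Between stages, 0 of 13220 genes (0%) were called in ketamine-treated D1 libraries and 0 of 13340 (0%) in saline D2 libraries by the edgeR quasi-likelihood test (Benjamini-Hochberg), and 516 (3.9%) and 545 (4.09%) had an unadjusted p under 0.05. DESeq2 with 2 surrogate variables called 2 and 0. Of the 20 genes of lowest p in saline D1, 8 had the same sign in ketamine-treated D1 libraries and 11 of the 19 tested had it in saline D2 libraries. One in each, Gna12 (-0.14) and Tbc1d32, also had an unadjusted p under 0.05. Egr2 had -0.14 in ketamine-treated D1 and 0.34 in saline D2 libraries, Sik1 0.02 and -0.08, Mapk10 -0.01 and 0.05, and Rasal1 0.10 and 0.06. Across genes, which are not independent replicates, the Spearman correlation of the log2 fold changes in saline D1 was -0.12 with ketamine-treated D1 (13074 genes) and -0.05 with saline D2 (13058 genes), and -0.14 and -0.10 without library 33.

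**Figure D5:**
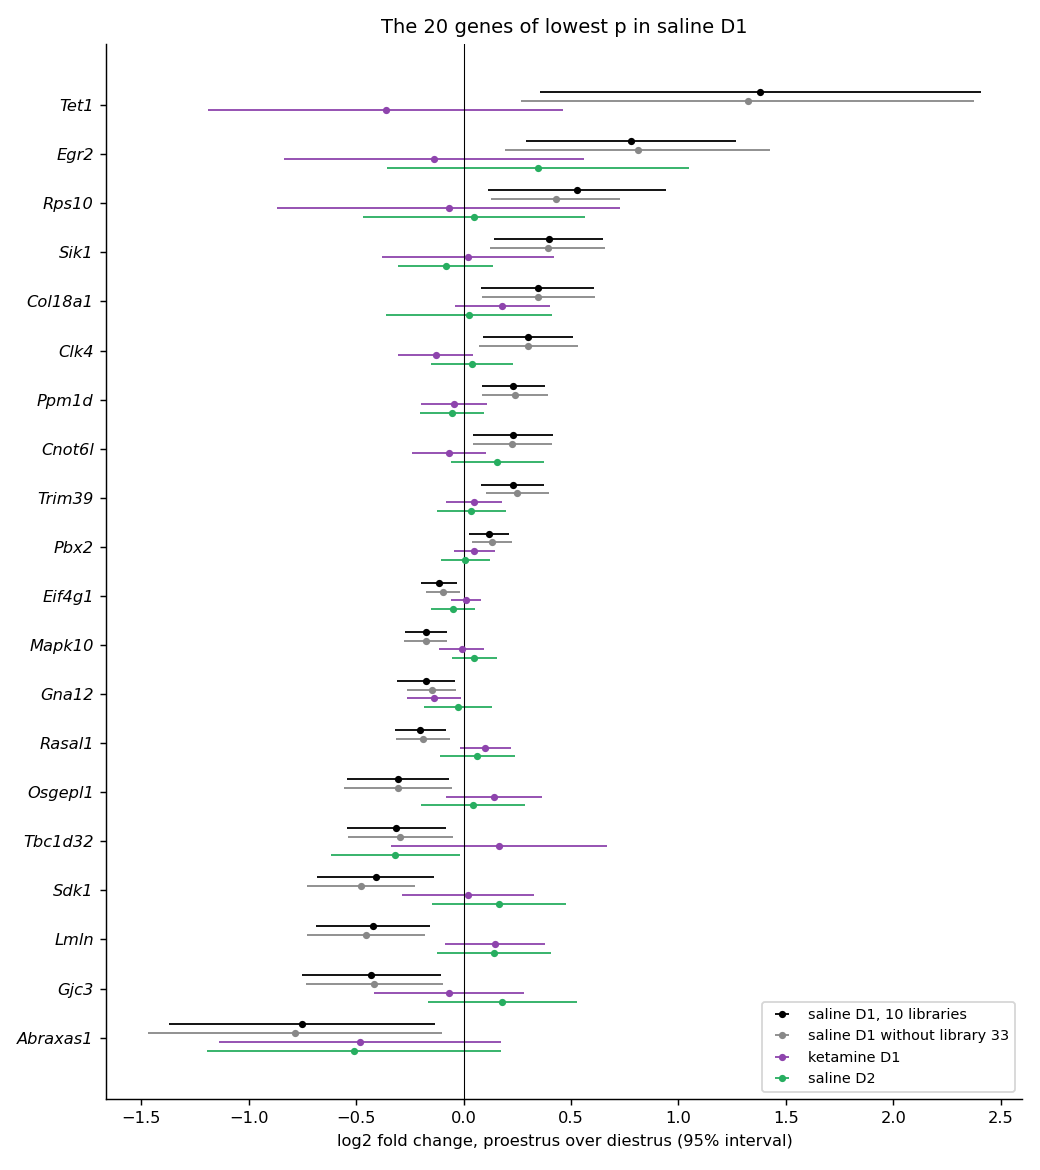
Log2 fold change, proestrus over diestrus, with 95% interval for the 20 genes with a symbol and the lowest p in saline D1, in 4 comparisons. Values with (black) and without (grey) library 33 lie together, while ketamine-treated D1 (purple) and saline D2 (green) values have the same sign for 8 of 20 and 11 of 19; the 20 were chosen on the black values, and Tet1 was not tested in saline D2.

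Whether the stage difference itself depended on cell type or treatment was tested by interactions. For cell type 0 of 13689 genes (0%) passed by the edgeR quasi-likelihood test (Benjamini-Hochberg), and 318 (2.32%) had an unadjusted p under 0.05. For treatment in D1 libraries 0 of 13593 (0%) passed, and 659 (4.85%) had an unadjusted p under 0.05, while DESeq2 with 2 surrogate variables called 0 and 6. Without library 33, edgeR called 0 genes for cell type and 4 for treatment, of which 3 are among the 14 genes above and share their saline libraries. Col11a2 had the lowest interaction p with treatment among the named genes. Its stage log2 fold change was -0.35 with saline and 0.66 with ketamine (adjusted p = 0.361, edgeR), a difference of -1.03 (SE 0.187, adjusted p = 0.111, edgeR). This call depended on the tool and the libraries. DESeq2 with 2 surrogate variables gave Col11a2 an adjusted p of 0.000698, and edgeR gave -0.98 (adjusted p = 0.105) without library 33 and adjusted p from 0.0226 to 0.354 with each library left out, under 0.1 without saline libraries 1 and 9 and ketamine libraries 34 and 36.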

How the data were processed

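The values are expected counts, which the authors estimated per transcript with Salmon 1.10.2 (fastp 0.23.4, FastQC 0.12.1, Ensembl release 110, mRatBN7.2), summed per gene with tximport 1.30.0 and deposited as whole numbers, not normalized, for 23978 Ensembl genes. Salmon splits reads between similar transcripts, so near-identical genes are uncertain. The transcript lengths that tximport can pass on were not used here. Symbols were found for 1966 genes by way of other identifiers in the authors' tables, whose fold changes and p-values were not used. Pairing follows which identifiers those tables show, so the named genes are not a random part of all genes.

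Within each comparison, genes were filtered by edgeR's filterByExpr (minimum count 10), scaled by TMM and then tested in edgeR 4.0.16 (quasi-likelihood, robust, Benjamini-Hochberg adjustment, threshold 0.1) with 2 surrogate variables from sva 3.50.0, in R 4.3.3 with limma 3.58.1. CPM of single genes are scaled by TMM over the 10 libraries and compared by 2-sided exact permutation tests of mean log2(CPM + 1). The steps were tested on simulated data. Alternatives were DESeq2 1.42.0, other numbers of surrogate variables, filters, scalings and models, and each library left out. The blocks of 8 consecutive library numbers are an assumption, since the labels do not say that such libraries were handled together.

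The libraries, gene lists and tests were chosen with earlier results of these data known. Named genes were the 10 of lowest p in each direction, in each list those with an unadjusted p under 0.05 (at most 3) or else the lowest, and marker genes. The 10 genes whose share differed most in library 33 have no symbol, and 2 of them are given. Families of genes defined by symbol, the single arm AGGTCA, the combinations of library 33 left out with another model, the fully separated genes, Tmem119, Cyp19a1, Egfl8, Mcf2 and Poglut1 were added after the data were seen. Rats are independent, 1 per library. RefSeq promoters were matched by gene number for 1651 paired genes. Intervals and SEs cover only the spread between libraries that is left after the 2 surrogate variables. Some members of the lists are not reported here.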

Additional observations from a re-analysis of the deposited data

Results flagged for a closer look

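Each group of 5 libraries was searched for a library whose gap to its nearest neighbor took up more of the range than Dixon's 95% critical value, which about 1 group in 20 exceeds by chance. Of 142 groups 11 exceeded it. One of the 11 is the share of counts in 4 genes, 10.5% in library 33, which is a description only, since the library and the 4 genes were singled out for that share. Among proestrus libraries, library 17 did so for Kcnj6 (38.4 CPM), for Col6a1 (1.62 CPM) and for the summed shared medium spiny neuron markers Gad1 and Rgs9 (1558 CPM), library 25 for Psmb9 (1.74 CPM) and Cyp19a1 (1.36 CPM), and library 1 for Tbc1d32 (9.27 CPM). Among diestrus libraries, library 11 did so for Sdhc (149 CPM) and Clock (40.9 CPM), library 3 for Rasal1 (97.4 CPM) and library 35 for Cdkn1a (5.74 CPM). With no library left out, no named gene had an interaction of stage with cell type or treatment past the adjusted threshold of 0.1 by edgeR. Col11a2 passed it for treatment in some fits with 1 library left out, as given above.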

How the results depend on the processing

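The count of 0 called genes became 5 with 3 surrogate variables, 2 with DESeq2 and 2 surrogate variables, and 0 to 14 with each library left out: 14 without library 33, 1 each without libraries 1, 11 and 27. Without library 33 together with another model, chosen after seeing the data, it was 28 with DESeq2 and 2 surrogate variables, 13 with DESeq2 alone and 0 without surrogate variables. The count of 522 genes at an unadjusted p under 0.05 was 297 without surrogate variables, 839 with 3, 312 with DESeq2 alone, 240 with blocks of 8 library numbers, 421 to 734 with each library left out, and 330 and 320 without library 33 and surrogate variables (edgeR and DESeq2). Library 9 gave the lowest of these and library 33 the highest. For the other stage comparisons, no filter gave 1 call in saline D2 and 2 in ketamine-treated D1 libraries, DESeq2 with 2 surrogate variables gave 2 in ketamine-treated D1 libraries and 6 for the interaction with treatment, and leaving out libraries gave 0 to 1 in ketamine-treated D1 libraries and 0 to 4 for that interaction (4 without library 33). The causes were not tested.

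Of 58 named genes 49 kept their sign in every alternative, and of 1272 values 24 reversed. Epha5 had 0.020 without surrogate variables, 0.026 with 1, 0.024 with DESeq2 alone and 0.012 with blocks. Esrrg had 0.076 without surrogate variables, 0.075 with 1, 0.081 with DESeq2 alone, 0.077 with blocks, 0.037 in the model of 39 libraries and 0.066 in that of 20. Cacng5 had 0.13 without surrogate variables, 0.14 with DESeq2 alone and in the model of 39 libraries, and 0.064 with blocks. With single libraries left out, Cacng5 had -0.26 to 0.17, Psmb9 -0.24 to 0.83, Cdkn1a -0.34 to 0.15, Clock -0.026 to 0.12, Nrip1 -0.016 to 0.083, Srd5a3 -0.059 to 0.036 and Cyp19a1 -0.31 to 0.21. Of 174 values of mean log2(CPM + 1) differences, 167 kept sign and side of 0.05. Without library 33 the exact p of Egr2, Sdk1 and Egfl8 fell under 0.05 (0.0397, 0.00794 and 0.0317), that of Fbxo28 rose to 0.0794, and Epha5 (-0.10), Esrrg (-0.045) and Cacng5 (-0.042) reversed. The blocks of 8 library numbers, each with 1 proestrus and 1 diestrus library, are the nearest to a paired analysis and gave 0 calls, and the labels give no replicate number shared between groups.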
